A study of Homo sapiens with 24 samples.

Results

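The 57 mitosis genes described here are a list of genes that drive cell division, from the cyclins and kinases that start mitosis to the proteins that part the daughter cells. They were measured in RWPE1 cells, a line of immortalised human prostate epithelial cells, after treatment with 1,25(OH)2D, which is vitamin D in its hormonal form. Every probe set on the array whose annotation gives only 1 of the 57 listed symbols was taken, which gave 109 of 54613 probe sets and at least 1 for each of the 57 genes. After the filter on dim probe sets 96 of these 109 were tested, and every one of the 57 genes kept at least 1. Each gene is represented by its brightest tested probe set, as was done for all 12008 genes compared. RWPE1 cells were given 100 nM 1,25(OH)2D or ethanol vehicle in the medium for 6, 24 or 48 h, and the medium of the 48 h flasks was changed after 24 h. Whether the new medium held 1,25(OH)2D again is not stated in the sources used here, so that 48 h is the time since treatment began. RNA of each flask was hybridised to an Affymetrix U133 Plus 2.0 array, so that each of the 6 groups has 4 arrays, 24 altogether, which the sample titles call biological replicates. All flasks come from this 1 line, which was immortalised by a papillomavirus and does not stand for the prostate as a whole. All values are log2 intensities from gcRMA, so that a difference of 1 is a doubling of signal.

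Mitosis begins when cyclin B binds and switches on the kinase CDK1, helped by the CDC25 phosphatases and held in step by the polo-like and Aurora kinases. Chromosomes are then condensed, attached through their kinetochores to spindle microtubules and pulled apart once the spindle checkpoint lets the anaphase-promoting complex act. The genes for this machinery are transcribed together late in the cell cycle, when MYBL2 and FOXM1 bind their promoters with the MuvB complex, and they are silenced in resting cells by the DREAM complex, which holds the same MuvB core. Their RNA level in a culture therefore depends on how many cells are dividing. The arrays measured RNA from whole flasks, in which fewer dividing cells and less RNA per dividing cell cannot be told apart.

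The promoters of 4 of the genes are shown because MuvB reaches its targets through short letters near the start site, and these genes span the range of responses given below. Read by brightest probe sets, NDC80 had the largest fall at 48 h among the genes past the threshold and PLK1 the smallest difference. CCNB1 and CDC20 are textbook late cell cycle genes. Each sequence runs 5′ to 3′ from 250 bases before to 50 bases after the RefSeq start site (GRCh38.p14). Capitals mark 2 motifs searched on both strands, the CHR element (TTTGAA or TTCGAA) and the CCAAT box that the factor NF-Y binds.
CCNB1, chr5:69166900-69167199, + strand: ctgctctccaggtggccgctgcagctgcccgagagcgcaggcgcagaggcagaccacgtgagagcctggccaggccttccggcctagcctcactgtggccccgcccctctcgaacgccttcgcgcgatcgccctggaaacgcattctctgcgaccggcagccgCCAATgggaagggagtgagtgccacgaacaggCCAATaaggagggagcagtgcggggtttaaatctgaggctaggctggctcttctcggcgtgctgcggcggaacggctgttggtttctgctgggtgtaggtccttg
CDC20, chr1:43358731-43359030, + strand: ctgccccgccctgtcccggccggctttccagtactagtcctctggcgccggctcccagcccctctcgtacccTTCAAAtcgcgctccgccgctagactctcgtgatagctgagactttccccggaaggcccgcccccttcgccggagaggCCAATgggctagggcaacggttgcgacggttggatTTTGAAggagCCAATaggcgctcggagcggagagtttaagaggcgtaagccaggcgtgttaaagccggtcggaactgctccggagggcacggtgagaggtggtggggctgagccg
NDC80, chr18:2571307-2571606, + strand: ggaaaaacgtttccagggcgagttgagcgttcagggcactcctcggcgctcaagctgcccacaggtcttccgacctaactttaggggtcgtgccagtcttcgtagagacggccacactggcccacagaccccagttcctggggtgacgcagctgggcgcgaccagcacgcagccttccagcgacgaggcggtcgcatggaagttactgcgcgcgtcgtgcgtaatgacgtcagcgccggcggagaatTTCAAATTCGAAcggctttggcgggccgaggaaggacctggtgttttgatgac
PLK1, chr16:23678639-23678938, + strand: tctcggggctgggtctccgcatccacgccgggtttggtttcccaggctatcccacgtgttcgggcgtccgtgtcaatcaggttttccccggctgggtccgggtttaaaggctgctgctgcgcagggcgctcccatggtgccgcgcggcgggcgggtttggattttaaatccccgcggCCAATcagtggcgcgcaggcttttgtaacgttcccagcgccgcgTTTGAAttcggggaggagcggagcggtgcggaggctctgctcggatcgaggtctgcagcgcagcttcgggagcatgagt
CCNB1 held CCAAT boxes whose first bases lie at -87 and -55 from the start site, and no CHR letters in this window. CDC20 held both motifs at 2 places each, with CHR letters at -178 and -65 and CCAAT boxes at -100 and -55. NDC80 held 2 adjoining CHR elements at -3 and 4, on the start site itself, and no CCAAT box, whereas PLK1 held 1 of each, at -29 and -73. Of the 57 genes 49 were found in the RefSeq promoter table. CHR letters were present in 37 of the 49 (75.5%), against 16.4% of all 35116 promoters of the same length, and a CCAAT box in 35 (71.4%), against 34.6%. Both were present in 28 (57.1%), against 6.38% of all promoters. Among genes that fell at 48 h and were in the table, 10 of 16 (62.5%) held CHR letters, and among the other 33 the number was 27 (81.8%). A match is a string of letters and not a measured binding site.

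The labels and the cell type were checked on other genes. CYP24A1, the enzyme that inactivates 1,25(OH)2D, was higher with 1,25(OH)2D at every time (limma, adjusted p under 0.05). Its log2 level was 8.90 to 13.90 over the 12 arrays with 1,25(OH)2D and 3.48 to 4.51 over the 12 with vehicle, the last near the lowest values kept by the filter, so that no exact change is given. The basal keratins KRT5 and KRT14 lay between 15.2 and 16.2 in all 24 arrays, and KLK3, a luminal prostate marker, never passed 5.20. The marker lists for other cells were mixed. Of the fibroblast markers COL1A1, a collagen chain, lay at 9.45 to 10.72 by its brightest probe set, whereas COL1A2, COL3A1 and DCN stayed at or below 3.40 in every array and LUM at or below 3.52. Of the endothelial markers KDR reached 6.04 and PECAM1 4.45, while VWF and CDH5 stayed at or below 3.09. The leukocyte markers CD3E, ITGAM and PTPRC did not pass 3.82. On 4 arrays the values of many genes departed from those of their own group. These were 1,25(OH)2D replicates 1 and 4 of the 24 h group and the first vehicle replicate of both 6 and 24 h. Along the main axis of spread between replicates (the first principal component of each array's deviation from its group mean, 71.9% of that spread) the 1,25(OH)2D arrays lay at 0.41 and -0.54 and the vehicle arrays at -0.35 and -0.36, and the other 20 arrays lay between -0.23 and 0.25. The results for 24 h are given with and without them.

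As a mean over the 57 genes, the arrays showed no clear difference at 6 h, a wide and uneven deficit with 1,25(OH)2D at 24 h, and a small, even one at 48 h. The mean was 10.21 ± 0.20 in 1,25(OH)2D arrays and 10.17 ± 0.29 in vehicle arrays at 6 h (SD, n = 4 each). At 24 h it was 10.01 ± 0.40 with 1,25(OH)2D and 10.60 ± 0.30 with vehicle (SD, n = 4 each), a log2 difference of -0.59. At 48 h it was 10.32 ± 0.06 with 1,25(OH)2D and 10.60 ± 0.08 with vehicle (SD, n = 4 each), a difference of -0.28. The 48 h groups did not overlap, with 10.26, 10.31, 10.33 and 10.39 in the 1,25(OH)2D arrays, against 10.50, 10.61, 10.69 and 10.60 in the vehicle arrays. At 24 h they did overlap, with 10.42, 10.08, 10.09 and 9.47 in the 1,25(OH)2D arrays, against 10.16, 10.78, 10.68 and 10.78 in the vehicle arrays. The 2 overlapping values are those of 1,25(OH)2D replicate 1 and vehicle replicate 1, both among the 4 arrays named above.

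**Figure D1:**
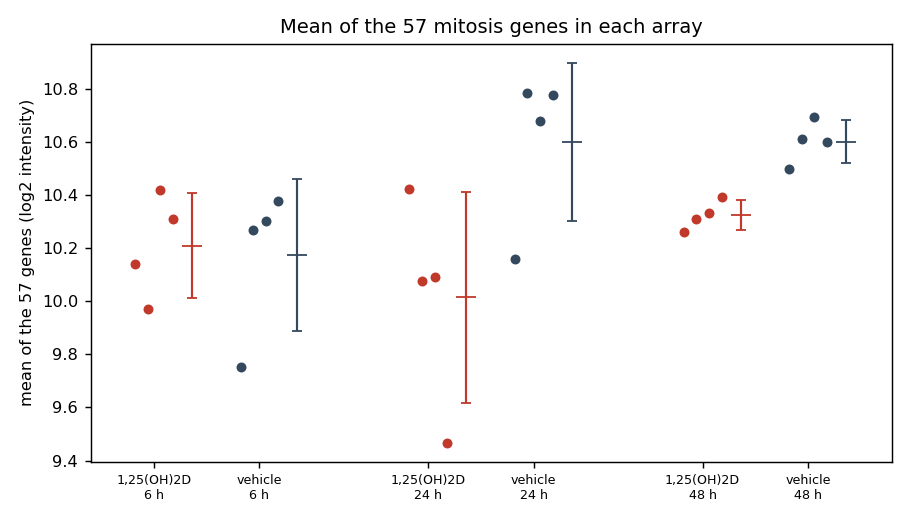
Mean log2 intensity of the 57 mitosis genes (y axis) in each array, with 1,25(OH)2D left of vehicle at 6, 24 and 48 h (x axis). Points are arrays and the bar beside them is the group mean ± SD (n = 4). At 48 h the 1,25(OH)2D arrays lie between 10.26 and 10.39, all below the vehicle arrays, which start at 10.50.

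At 48 h 17 of the 57 genes (29.8%) were significantly lower with 1,25(OH)2D (limma, adjusted p under 0.05) and 0 were higher. Over all 12008 genes 6.87% fell and 5.14% rose in this comparison. By an unadjusted p under 0.05, 37 of the 57 were lower and 0 were higher, against 15.1% and 11.6% of all genes. SAM, the permutation method that the study's methods name, called 28 lower and 0 higher, against 9.98% and 6.67% of all genes. The changes were small by the brightest probe sets. The median log2 change was -0.25 over the 57 genes (-0.01 over all genes), the median SE 0.0858 and the range -0.62 to 0.10. Below 0 were 55 of the 57, and 53 when each array was centred on its own median, a step that moved all changes of this comparison up by 0.04. All 4 1,25(OH)2D arrays lay below all 4 vehicle arrays for 29 genes (50.9%, against 10.8% of all genes), and above them for 0 (8.39% of all genes). The number that fell hung on single arrays. It was 9, 23, 9 and 11 without 1,25(OH)2D replicate 1, 2, 3 or 4, and 17, 7, 8 and 9 without vehicle replicate 1, 2, 3 or 4. In these fits 4.4% to 9.2% of all genes were lower, the highest share being that without 1,25(OH)2D replicate 2. Called whichever array was left out were 6 genes, BUB1, DLGAP5, KIF11, KIF15, KIF2C and TOP2A. Under the 1.5-fold limit used beside the adjusted p, 2 genes remained by their brightest probe sets, NDC80 and TTK.

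**Figure D2:**
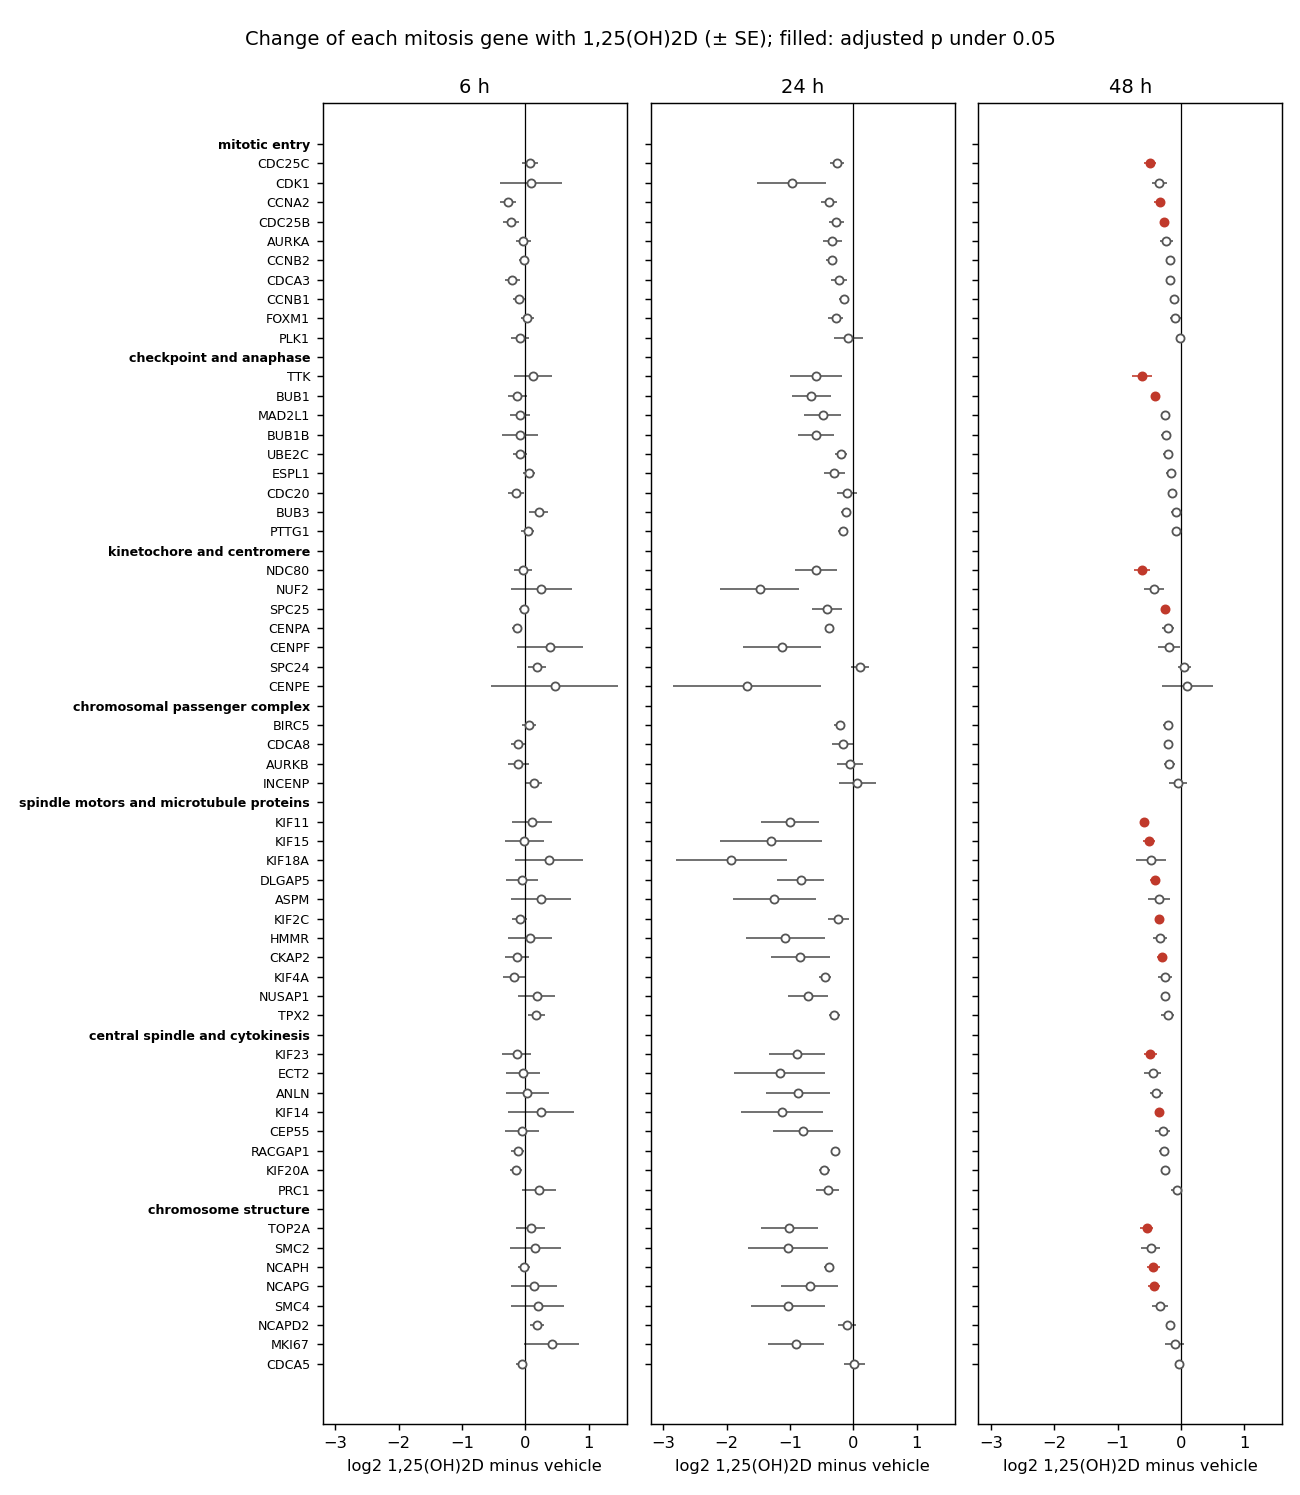
Log2 difference between 1,25(OH)2D and vehicle (x axis, ± SE, n = 4 arrays each) for each of the 57 genes, grouped by role and sorted by the 48 h value (y axis), at 6, 24 and 48 h. Filled points are the 17 genes with an adjusted p under 0.05, all at 48 h and all below 0. The 24 h values spread widest, from -1.92 to 0.11, with the longest error bars.

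Among the 10 genes of mitotic entry, 3 fell at 48 h and 7 did not pass the test, with a median of -0.21. CDC25C, the phosphatase that removes the brake from CDK1, moved most in this class. Its values were 9.33, 9.49, 9.35 and 9.78 in the 1,25(OH)2D arrays at 48 h, against 10.01, 9.88, 9.97 and 10.05 in the vehicle arrays, so that the groups did not overlap. CDC25C fell by 0.49 (SE 0.102, adjusted p = 0.0221). CCNA2, the cyclin of S phase and early mitosis, fell by 0.34 (adjusted p = 0.0467), and CDC25B, a phosphatase that starts CDK1 activation at centrosomes, fell by 0.27 (adjusted p = 0.0223). The core of the entry switch did not pass limma's test by adjusted p. CDK1 had a difference of -0.34 (SE 0.115, adjusted p = 0.118) and its partner CCNB1 one of -0.11 (adjusted p = 0.194). The other B cyclin, CCNB2, had one of -0.18 (adjusted p = 0.127). All of these were lower by an unadjusted p under 0.05, and SAM called CCNB1 but not CDK1 or CCNB2. For both cyclins all 1,25(OH)2D arrays lay below all vehicle arrays, whereas CDK1 overlapped. FOXM1, the transcription factor for many of these genes, had a difference of -0.09 (adjusted p = 0.622). PLK1, the polo-like kinase that acts from entry to cytokinesis, showed the smallest difference of the class. Its values were 10.10, 10.08, 10.11 and 10.12 in the 1,25(OH)2D arrays at 48 h, against 9.99, 10.15, 10.19 and 10.17 in the vehicle arrays. Vehicle replicate 1 was the lowest of all 8 and the other 7 lay within a narrow band. PLK1 differed by -0.02 (SE 0.0532, adjusted p = 0.917), and its sign turned when arrays were centred on their medians.

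Of the 9 genes of the spindle checkpoint and anaphase, 2 fell at 48 h, both checkpoint kinases. TTK (also known as MPS1), which starts the checkpoint signal at unattached kinetochores, had values of 8.77, 8.17, 8.50 and 8.52 in the 1,25(OH)2D arrays at 48 h, against 8.84, 9.21, 9.40 and 8.98 in the vehicle arrays. The highest 1,25(OH)2D array was just below the lowest vehicle array, and TTK fell by 0.62 (SE 0.156, adjusted p = 0.0465). BUB1, which brings checkpoint proteins to the kinetochore, had values of 9.66, 9.66, 9.78 and 9.64 in the 1,25(OH)2D arrays at 48 h, against 10.16, 10.09, 9.96 and 10.14 in the vehicle arrays. These groups stood well apart, with a fall of 0.41 (SE 0.0591, adjusted p = 0.00494). The checkpoint effectors BUB1B and MAD2L1 had differences of -0.25 and -0.25, with adjusted p of 0.0727 and 0.0603. CDC20, the activator of the anaphase-promoting complex, had a difference of -0.14 (adjusted p = 0.291), and UBE2C, the ubiquitin-conjugating enzyme of the same complex, one of -0.21 (adjusted p = 0.117). PTTG1 (securin), the inhibitor of the protease separase, was the flattest of the class. Its values were 14.07, 14.15, 14.12 and 14.21 in the 1,25(OH)2D arrays at 48 h, against 14.19, 14.15, 14.24 and 14.27 in the vehicle arrays, which overlap. PTTG1 differed by -0.08 (SE 0.0485, adjusted p = 0.413), from a probe set of a type that can also bind close copies of its gene. BUB3, CENPA and FOXM1 were read by probe sets of this type too.

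In the kinetochore, 2 of 7 genes fell at 48 h, both subunits of the NDC80 complex that grips microtubules. NDC80 itself had values of 10.23, 9.82, 10.33 and 10.34 in the 1,25(OH)2D arrays at 48 h, against 10.82, 10.97, 10.72 and 10.68 in the vehicle arrays. No arrays of the groups overlapped, and the fall of 0.62 (SE 0.126, adjusted p = 0.0201) came to 0.651 times the vehicle level. Of the other three subunits SPC25 fell by 0.26 (adjusted p = 0.0456), NUF2 had a difference of -0.43 (SE 0.165, adjusted p = 0.167) and SPC24 was the flattest gene of the class. SPC24 had values of 8.67, 8.90, 8.72 and 8.92 in the 1,25(OH)2D arrays at 48 h, against 8.97, 8.72, 8.57 and 8.75 in the vehicle arrays, which overlap, and a difference of 0.05 (SE 0.0974, adjusted p = 0.876). CENPA, the centromere histone, had a difference of -0.20 (adjusted p = 0.266). CENPE, a kinetochore motor, had the widest error of all 57 at 48 h, with values of 5.004, 5.21, 4.95 and 5.36 with 1,25(OH)2D and 3.97, 4.91, 6.15 and 5.09 with vehicle and a difference of 0.10 (SE 0.4, adjusted p = 0.96). CENPF, a large kinetochore protein, had values of 9.06, 9.35, 9.09 and 9.32 in the 1,25(OH)2D arrays at 48 h, against 8.99, 9.28, 9.85 and 9.48 in the vehicle arrays, with overlap and a difference of -0.20 (SE 0.174, adjusted p = 0.6).

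None of the 4 genes of the chromosomal passenger complex, which corrects faulty attachments and guides cytokinesis, passed limma's test at 48 h, with 2 lower by an unadjusted p under 0.05 and by SAM, each read by its brightest probe set. The largest difference was that of BIRC5 (survivin). Its values were 12.48, 12.36, 12.35 and 12.56 in the 1,25(OH)2D arrays at 48 h, against 12.68, 12.54, 12.75 and 12.64 in the vehicle arrays, and only vehicle replicate 2 lay within the range of the 1,25(OH)2D arrays. BIRC5 differed by -0.21 (SE 0.0669, adjusted p = 0.0951). A second of its 4 tested probe sets did pass, at -0.24 (adjusted p = 0.037), with medians of 10.27 in the 1,25(OH)2D arrays and 10.53 in the vehicle arrays. The remaining BIRC5 probe sets did not pass, at -0.22 (adjusted p = 0.313) and -0.03 (adjusted p = 0.956). The kinase AURKB and the targeting subunit CDCA8 had differences of -0.19 and -0.21, with adjusted p of 0.227 and 0.0798. INCENP, the scaffold, had values of 5.67, 6.17, 5.72 and 5.72 in the 1,25(OH)2D arrays at 48 h, against 5.82, 6.18, 5.72 and 5.78 in the vehicle arrays. In each group replicate 2 was the high one, and the difference of -0.05 (SE 0.14, adjusted p = 0.927) was well within the spread.

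Spindle motors and microtubule proteins held the most calls at 48 h, with 5 of 11 genes lower and a median of -0.35. Read by brightest probe sets, KIF11 (Eg5), the motor that pushes the spindle poles apart, had the lowest adjusted p of all 57 genes. Its values were 8.43, 8.41, 8.55 and 8.65 in the 1,25(OH)2D arrays at 48 h, against 9.09, 9.15, 9.14 and 8.99 in the vehicle arrays. The groups are separated by more than the range within either, and KIF11 fell by 0.58 (SE 0.0669, adjusted p = 0.00157), to 0.668 times the vehicle level. KIF15, a motor that can act beside KIF11, had values of 7.44, 7.48, 7.48 and 7.499 in the 1,25(OH)2D arrays at 48 h, against 7.73, 8.04, 8.22 and 7.96 in the vehicle arrays and fell by 0.51 (SE 0.0951, adjusted p = 0.0142). Also lower were DLGAP5, which stabilises kinetochore fibres, by 0.42 (adjusted p = 0.0126), KIF2C, a microtubule depolymerase, by 0.35 (adjusted p = 0.0092), and CKAP2, a microtubule-associated protein, by 0.31 (adjusted p = 0.0394). KIF18A, a motor that damps chromosome movement, had a difference of -0.47 but an SE of 0.237 and an adjusted p of 0.296. TPX2, the spindle activator of Aurora A, had the smallest difference of the class. Its values were 12.16, 12.66, 12.38 and 12.31 in the 1,25(OH)2D arrays at 48 h, against 12.68, 12.51, 12.62 and 12.55 in the vehicle arrays. Its 1,25(OH)2D replicate 2 lay among the vehicle arrays, and TPX2 differed by -0.21 (SE 0.103, adjusted p = 0.283), a difference that passed the test, at -0.31, without that array.

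Of the 8 genes of the central spindle and cytokinesis, 2 fell at 48 h. KIF23, a motor of the centralspindlin complex that bundles the midzone, had values of 9.55, 9.68, 9.84 and 9.73 in the 1,25(OH)2D arrays at 48 h, against 9.98, 10.35, 10.36 and 10.06 in the vehicle arrays. These did not overlap and KIF23 fell by 0.49 (SE 0.106, adjusted p = 0.0263). KIF14, a motor needed for cytokinesis, fell by 0.34 (adjusted p = 0.024). The partner of KIF23, RACGAP1, had a difference of -0.27 (adjusted p = 0.06), ECT2, the exchange factor that activates RhoA, one of -0.45 (adjusted p = 0.078), and ANLN (anillin), a scaffold of the contractile ring, one of -0.39 (adjusted p = 0.0564). All 3 had no overlap between groups. PRC1, which crosslinks midzone microtubules, had values of 12.13, 12.52, 12.26 and 12.23 in the 1,25(OH)2D arrays at 48 h, against 12.25, 12.37, 12.39 and 12.40 in the vehicle arrays. They overlap, with a difference of -0.07 (SE 0.0862, adjusted p = 0.76).

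Among 8 genes of chromosome structure 3 fell at 48 h, and this class had the lowest median, -0.38. TOP2A, the topoisomerase that untangles sister DNA, had values of 10.82, 11.02, 11.26 and 11.16 in the 1,25(OH)2D arrays at 48 h, against 11.46, 11.63, 11.65 and 11.69 in the vehicle arrays. All 4 1,25(OH)2D arrays were below the vehicle arrays and TOP2A fell by 0.54 (SE 0.101, adjusted p = 0.014). A second bright probe set of TOP2A fell further, by 0.96 (SE 0.098, adjusted p = 0.001). Its medians were 10.76 in the 1,25(OH)2D arrays and 11.72 in the vehicle arrays. A dim TOP2A probe set, near background, did not pass the test. The condensin subunits NCAPG and NCAPH, which compact mitotic chromosomes, fell by 0.43 and 0.44, with adjusted p of 0.0218 and 0.0415. The condensin core subunits SMC2 and SMC4 had differences of -0.48 and -0.33, with adjusted p of 0.0832 and 0.159. MKI67, the source of the Ki-67 proliferation antigen that coats chromosomes, had values of 9.33, 10.10, 9.62 and 9.81 in the 1,25(OH)2D arrays at 48 h, against 9.84, 9.86, 9.92 and 9.65 in the vehicle arrays. The 1,25(OH)2D arrays reached both below and above the vehicle arrays, and the difference was -0.10 (SE 0.153, adjusted p = 0.807). CDCA5 (sororin), which protects cohesin until anaphase, had values of 10.29, 10.45, 10.36 and 10.45 in the 1,25(OH)2D arrays at 48 h, against 10.41, 10.40, 10.49 and 10.35 in the vehicle arrays, with overlap and a difference of -0.03 (SE 0.0546, adjusted p = 0.894).

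**Figure D3:**
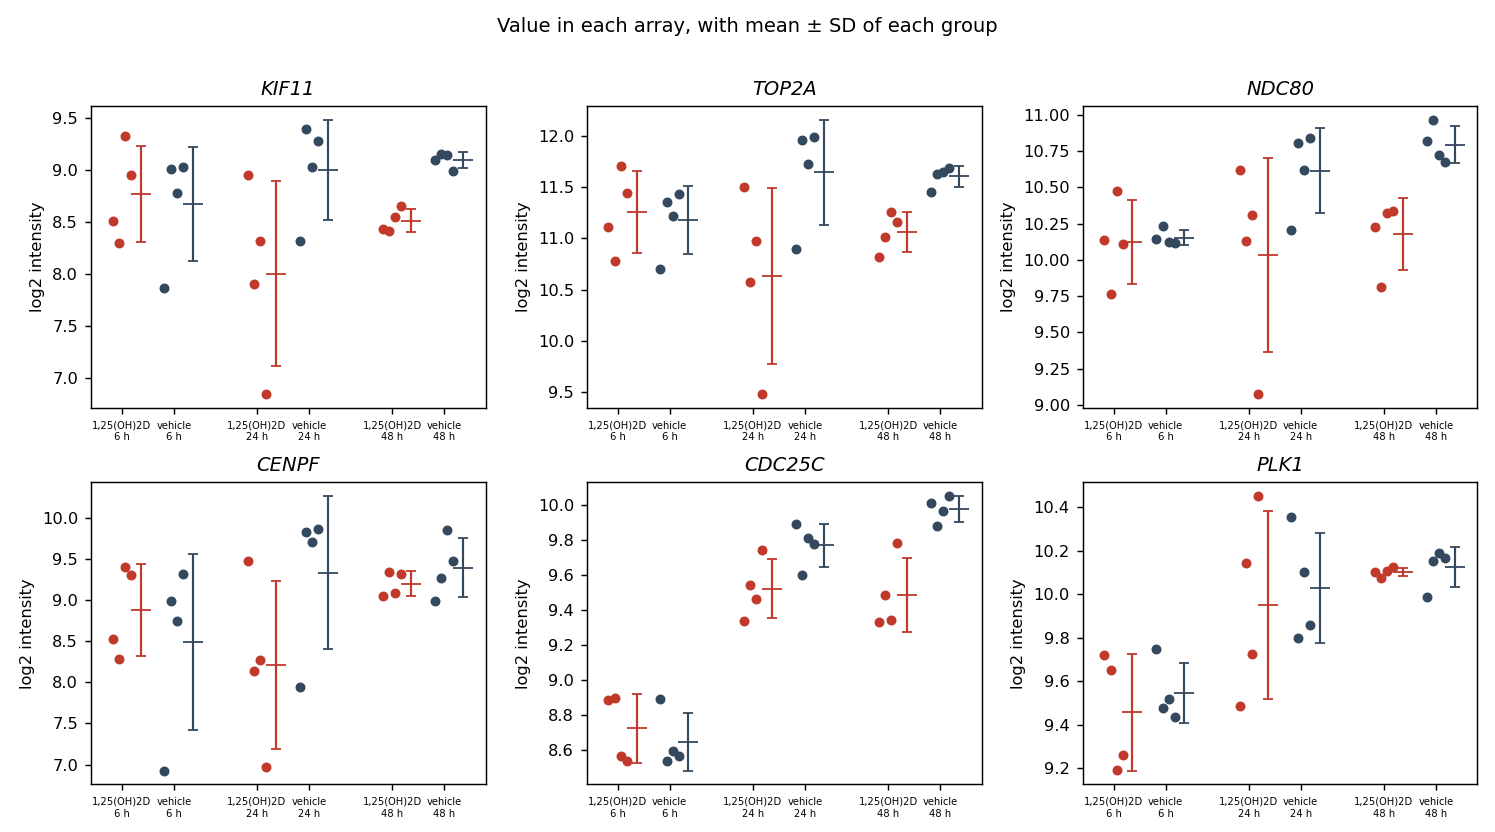
Log2 intensity of 6 of the genes (y axis) in each array, with 1,25(OH)2D left of vehicle at 6, 24 and 48 h (x axis). Points are arrays and the bar is the group mean ± SD (n = 4). KIF11, TOP2A, NDC80 and CDC25C do not overlap between groups at 48 h, CENPF and PLK1 do, and at 24 h one 1,25(OH)2D array is far below the others for KIF11, TOP2A, NDC80 and CENPF.

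Other measures were compared at 48 h as well. The signal of the 3′ minus the 5′ beta-actin control probe sets, a sign of RNA integrity, overlapped between the groups. It was 0.58 to 0.64 in 1,25(OH)2D arrays and 0.61 to 0.82 in vehicle arrays. For the GAPDH control probe sets it was -0.065 to 0.013 and -0.056 to -0.025, which overlap too. Among the markers of other cells, 1 of 2 tested fibroblast markers fell (COL1A1, by 0.60), the list's mean lying between 6.36 and 6.53 with 1,25(OH)2D and between 6.59 and 6.86 with vehicle. Likewise 1 of 2 tested endothelial markers fell (KDR, with 3.60 to 3.83 in 1,25(OH)2D arrays, near background, and 4.26 to 6.04 in vehicle arrays), with list means of 3.68 to 4.03 and 3.88 to 4.78, and 1 of 5 basal epithelial markers (KRT15, by 1.92), with list means of 13.24 to 13.44 and 13.58 to 13.70. The single tested luminal and leukocyte markers, KLK3 and PTPRC, did not pass the test. The part of these in the fall of the mitosis genes was not tested. On the main axis of spread the 8 arrays of 48 h lay close together, between -0.06 and 0.07.

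Several genes were read by more than 1 probe set. Over the 96 tested probe sets 26 fell at 48 h, in 20 genes, and 0 rose. BIRC5, ANLN and NUSAP1 are the 3 of these 20 genes whose brightest probe set did not pass. For NUSAP1 the brightest differed by -0.25 (adjusted p = 0.0646). Its other probe set passed, with a fall of 0.62 (SE 0.052) that is past the 1.5-fold limit. The medians of that probe set were 10.23 with 1,25(OH)2D and 10.84 with vehicle. The other ANLN probe set fell by 0.39 (adjusted p = 0.021). Of the 26 genes with several tested probe sets, 23 had all of them below 0. The other three were CENPF, KIF23 and MKI67. In KIF23 the bright probe set fell, as given above, and a dim one, with medians of 3.63 with 1,25(OH)2D and 3.57 with vehicle, did not pass the test. In CENPF and MKI67 no probe set passed.

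At 24 h 0 of the 57 genes passed the test in either direction, although the differences were larger than at 48 h. Over all genes the shares were low too, with 0.192% lower and 0.325% higher. By an unadjusted p under 0.05, 10 of the 57 (17.5%) were lower and 0 higher, against 4.59% and 5.2% of all genes. SAM called 10 lower and 0 higher, against 3.16% and 3.82% of all genes. The median log2 difference was -0.44 over the 57 genes and 0.01 over all genes, the range ran from -1.92 (KIF18A, with 1 1,25(OH)2D array as low as 2.87, near background) to 0.11 (SPC24), and the median SE was 0.233, against 0.0858 at 48 h. Below 0 were 54 of the 57, and 47 when each array was centred on its own median, which moved all values of this comparison up by 0.17. The lowest adjusted p was 0.114. All 4 1,25(OH)2D arrays lay below all 4 vehicle arrays for 9 genes (15.8%, against 3.06% of all genes) and above them for 0 (3.04% of all genes). Those 9 were CCNB1, CCNB2, CENPA, BIRC5, KIF4A, TPX2, KIF20A, RACGAP1 and NCAPH, and SAM called the same 9 and CCNA2.

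The genes with the widest differences at 24 h were also those that varied most between replicates. CENPF had values of 9.47, 8.14, 8.27 and 6.97 in the 1,25(OH)2D arrays at 24 h, against 7.94, 9.83, 9.71 and 9.87 in the vehicle arrays. The 1,25(OH)2D replicate 1 lay nearest to vehicle replicates 2 to 4, and vehicle replicate 1 lay among the other 1,25(OH)2D arrays, so that the difference of -1.12 had an SE of 0.621. KIF11 had values of 8.95, 7.90, 8.31 and 6.84 in the 1,25(OH)2D arrays at 24 h, against 8.31, 9.39, 9.02 and 9.27 in the vehicle arrays, with the same crossing and a difference of -0.997 (SE 0.454, adjusted p = 0.599). TOP2A had values of 11.51, 10.58, 10.98 and 9.48 in the 1,25(OH)2D arrays at 24 h, against 10.90, 11.97, 11.73 and 11.996 in the vehicle arrays and a difference of -1.01 (SE 0.452, adjusted p = 0.593). In each of these 3 genes 1,25(OH)2D replicate 4 was the lowest of the 8 arrays. TPX2 was steadier, with 12.43, 12.44, 12.57 and 12.40 in the 1,25(OH)2D arrays at 24 h, against 12.62, 12.76, 12.80 and 12.84 in the vehicle arrays. No array crossed over, and the difference of -0.30 had an SE of 0.0806 and an adjusted p of 0.315. For PLK1 the values were 9.49, 10.14, 9.72 and 10.45 in the 1,25(OH)2D arrays at 24 h, against 10.35, 9.80, 10.10 and 9.86 in the vehicle arrays, where 1,25(OH)2D replicate 4 was the highest of the 8, and the difference was -0.08 (SE 0.231).

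Without the 4 arrays that stood apart, 2 1,25(OH)2D and 3 vehicle arrays of 24 h were left, and 35 of the 57 genes (61.4%) were lower with 1,25(OH)2D and 0 were higher. In the same fit 14.2% of all genes were lower and 10.6% higher. The 4 arrays were set aside for departures in these same values. They include 1,25(OH)2D replicate 1 and vehicle replicate 1, whose means overlapped the other group at 24 h. The adjusted p and counts of this fit are therefore conditional on that choice. The median log2 difference was -0.43 over the 57 genes and 0.02 over all genes, with 51 of the 57 below 0. By class the number lower was 4 of 10 in mitotic entry, 4 of 9 in checkpoint and anaphase, 5 of 7 in kinetochore and centromere, 0 of 4 in the passenger complex, 9 of 11 in spindle motors and microtubule proteins, 7 of 8 in central spindle and cytokinesis and 6 of 8 in chromosome structure. CENPE was among them (adjusted p = 0.0133), with 3.02 and 3.55 in the 1,25(OH)2D arrays, against 6.55, 5.75 and 6.38 in the vehicle arrays. Its 1,25(OH)2D values lie near the lowest that the filter kept (3.205), where gcRMA pulls values to a floor, so that the fitted difference of -2.94 is no exact size. KIF18A differed by -2.40 (adjusted p = 0.022), and CDK1 differed by -1.37 (adjusted p = 0.0127). CCNB1 differed by -0.13 (adjusted p = 0.219), and PLK1 by 0.01. Of the 17 genes that fell at 48 h, 12 were among these 35.

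How far a gene differed at 24 h went with its weight on the main axis of spread between replicates. Of the 57 genes 37 had a positive weight, against 44.7% of all genes, and 17 were above the 90th percentile of all genes. CENPE stood at the 99.98th percentile, KIF18A at the 99.4th and KIF15 at the 98.31st, while PLK1 and AURKB stood lowest, at the 14.97th and 15.35th. Across the 57 genes the correlation of weight with the 24 h difference was -0.95 (Pearson) and -0.96 (Spearman). Across all 12008 genes the Pearson value was -0.78. Without the 4 arrays the value over the 57 genes was -0.95 too. At 48 h it was -0.40 (Pearson) and -0.54 (Spearman) over the 57 genes, and -0.13 and -0.21 over all genes. At 6 h it had the opposite sign, at 0.57 (Pearson) and 0.50 (Spearman) over the 57 genes, and was 0.01 over all genes. Genes are not independent replicates, the weights were computed from the same 24 arrays, and these correlations are descriptions only. Split by weight, the 37 genes with a positive weight had a median difference of -0.83 at 24 h and -0.34 at 48 h, with 14 falling at 48 h, and the 20 genes with a negative one had medians of -0.18 and -0.17, with 3 falling. The beta-actin 3′ minus 5′ signal at 24 h ran from 0.46, in 1,25(OH)2D replicate 4, to 0.73 in 1,25(OH)2D arrays and from 0.65 to 0.73 in vehicle arrays, and its part in the 24 h differences was not tested.

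**Figure D4:**
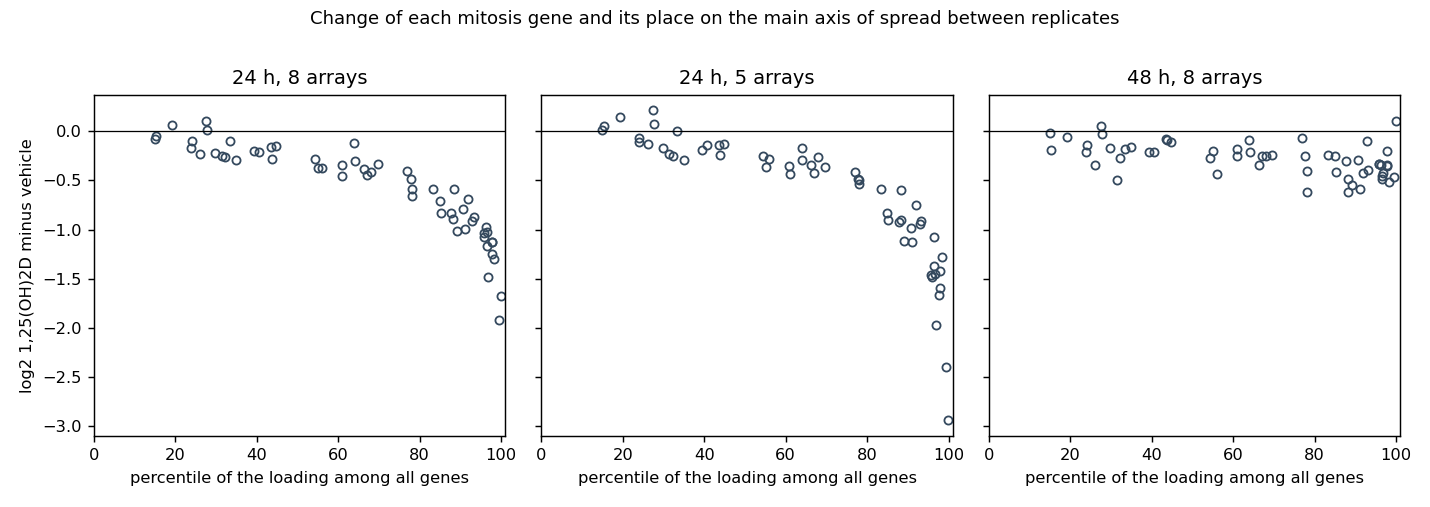
Log2 difference between 1,25(OH)2D and vehicle (y axis) of each of the 57 genes (points) against the percentile of its weight on the main axis of spread between replicates among all 12008 genes (x axis), at 24 h with all 8 arrays, at 24 h with the 5 arrays left without those that stood apart, and at 48 h with all 8 arrays. In both 24 h panels the difference deepens toward the highest percentiles, to -1.92 for KIF18A and to a fitted -2.94 for CENPE, whose 1,25(OH)2D values were near background, and at 48 h the points stay between -0.62 and 0.10 along the whole axis.

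At 6 h the mitosis genes showed no difference past the threshold, with 0 lower and 0 higher by limma, 0 and 0 by an unadjusted p under 0.05, and 0 and 0 by SAM. Over all genes 1.04% were lower and 2.37% higher by limma, 5.6% and 5.76% by an unadjusted p under 0.05, and 3.21% and 4.65% by SAM. The median log2 difference was -0.02, with 29 genes below 0 and 28 above, and the lowest adjusted p was 0.541. The sign of this median hung on single arrays. It was -0.12 without vehicle replicate 1, which is among the 4 arrays that stood apart, and 0.09 without 1,25(OH)2D replicate 2, and no gene passed the test when any 1 array was left out. All 4 1,25(OH)2D arrays lay below the vehicle arrays for 1 gene, CENPA (1.75%, against 4.26% of all genes), and above them for 0 (4.6% of all genes). CDC25C can stand for the rest, with 8.89, 8.90, 8.57 and 8.54 in the 1,25(OH)2D arrays at 6 h, against 8.89, 8.54, 8.60 and 8.57 in the vehicle arrays and a difference of 0.08 (SE 0.129). CENPF varied more, with 8.53, 8.28, 9.41 and 9.30 in the 1,25(OH)2D arrays at 6 h, against 6.93, 8.99, 8.75 and 9.32 in the vehicle arrays. Its vehicle replicate 1 was far below the other 7, and the difference was 0.39 (SE 0.524).

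Whether the effect of 1,25(OH)2D changed between times was tested in a fit of all 24 arrays. For 0 of the 57 genes did the effect differ between 24 and 6 h (2.84% of all genes), between 48 and 24 h (0.05%) or between 48 and 6 h (3.71%). By an unadjusted p under 0.05, 14 genes (24.6%) had a lower effect at 24 than at 6 h, against 6.45% of all genes. By the same measure 0 differed between 48 and 24 h (4.09% of all genes), and 4 (7.02%) had a lower effect at 48 than at 6 h, close to the 5.77% of all genes. A fall found at 48 h and not at 6 or 24 h is thus not shown to be particular to 48 h. Leaving out the arrays numbered 1 brought the count for 24 against 6 h to 8, a fit for which the share of all genes is not given.

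The mitosis genes also changed with time in culture. Between 6 and 24 h 10 of the 57 (17.5%) rose with 1,25(OH)2D and 0 fell, against 11.2% and 8.19% of all genes, with a median of -0.02 and 27 of the 57 above 0. With vehicle 19 (33.3%) rose over the same interval and 0 fell, against 5.07% and 3.9% of all genes, with a median of 0.37 and 56 of the 57 above 0. The counts of 0 came from limma, and by an unadjusted p under 0.05, 7 (12.3%) were lower with 1,25(OH)2D, a smaller share than the 19.1% of all genes, and 0 with vehicle (9.04% of all genes). CDC25C rose most in both arms, by 0.80 with 1,25(OH)2D (SE 0.116, adjusted p = 7.04e-05) and by 1.12 with vehicle (SE 0.116, adjusted p = 3.17e-06). KIF20A, a cytokinesis motor, rose by 0.52 with 1,25(OH)2D and by 0.83 with vehicle, and the condensin subunit NCAPD2 by 0.45 and 0.74. Of the 10 genes that rose with 1,25(OH)2D, 7 were among the 19 of vehicle, and the other three were PLK1, AURKB and CDCA5. The counts were not steady: without the arrays numbered 1, 2, 3 or 4 in every group the 1,25(OH)2D count was 17, 4, 2 and 2, and without those numbered 2, 3 or 4 the vehicle count was 7, 7 and 10. Without the arrays numbered 1, 22 genes fell with 1,25(OH)2D between 6 and 24 h. The share of all genes in these fits with a number left out is not given, so their counts cannot be set against it. The difference between the arms is the change of effect given above, which did not pass the test for any of the 57. Between 24 and 48 h 0 genes passed the test with 1,25(OH)2D (2.43% of all genes) and 0 with vehicle (0.425%), with 7 (12.3%) and 3 (5.26%) by an unadjusted p under 0.05, below the 15% and 9.5% of all genes. In this interval 9 genes passed with 1,25(OH)2D when the arrays numbered 1 were left out, again without a share of all genes beside it.

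**Figure D5:**
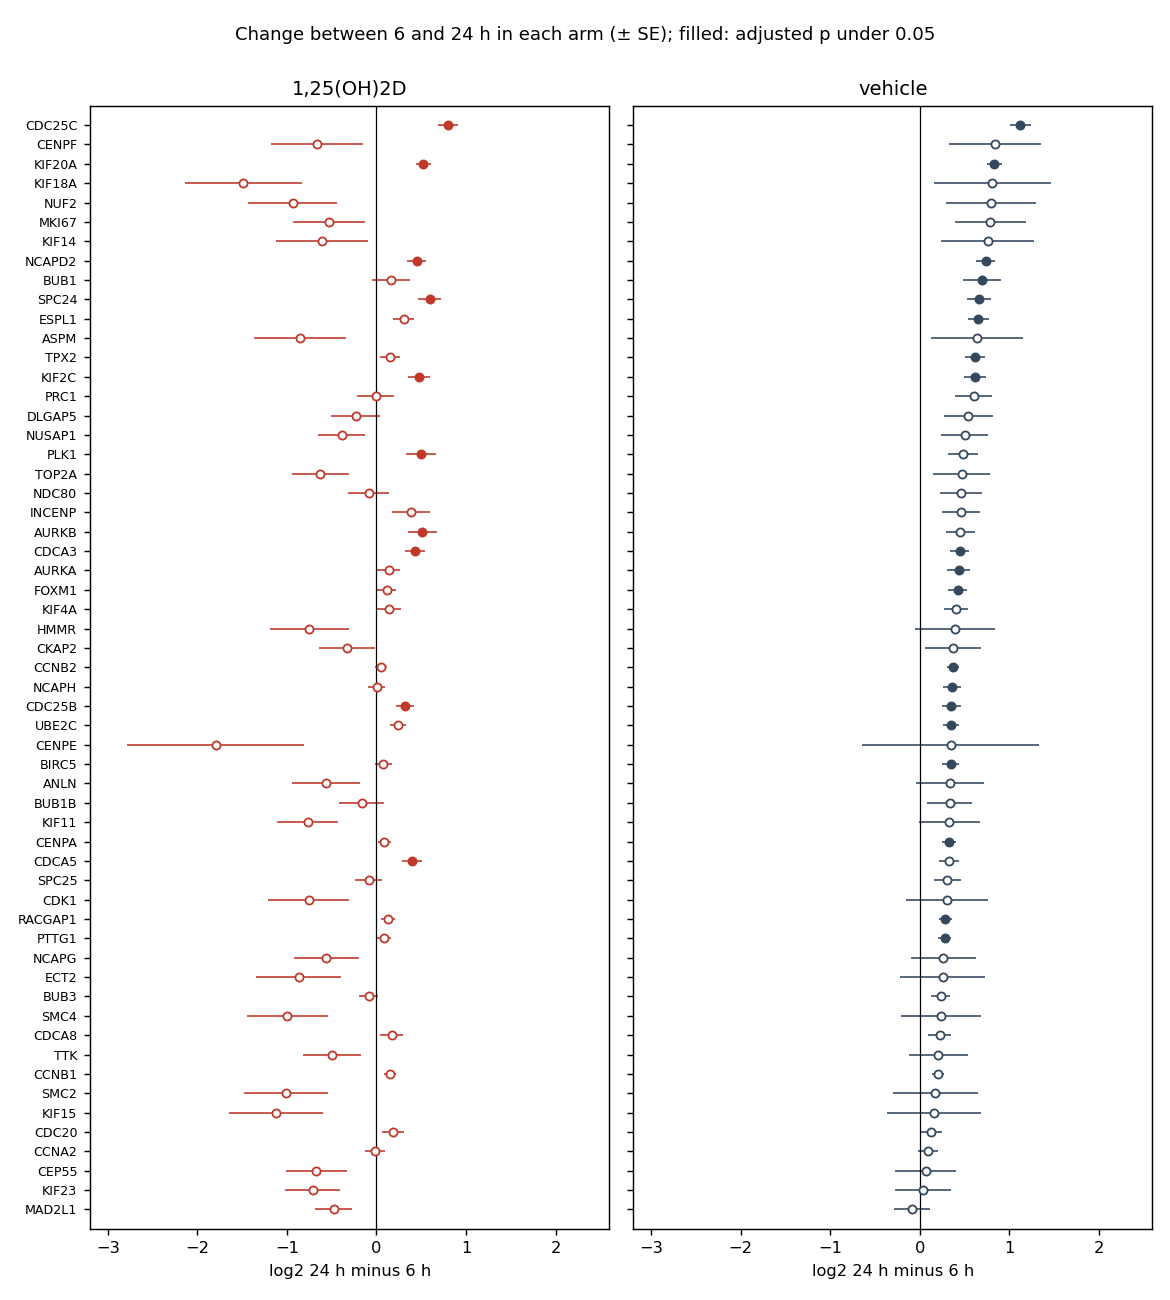
Log2 difference between 24 and 6 h (x axis, ± SE from the fit of all 24 arrays) of each of the 57 genes (y axis, sorted by the vehicle value), with 1,25(OH)2D on the left and vehicle on the right. Filled points passed the test, 10 with 1,25(OH)2D and 19 with vehicle, all above 0. With 1,25(OH)2D 27 of the 57 genes lie above 0 and with vehicle 56 do.

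Other genes of the same pathway were read from lists of related genes. By limma 0 of the 98 tested genes of these 7 lists passed at 6 h and 0 at 24 h. An unadjusted p under 0.05 was reached by 1 lower and 3 higher genes at 6 h and by 4 and 3 at 24 h, and SAM called 0 and 3 at 6 h and 2 and 3 at 24 h. For 98 genes these are shares below the 5.6% and 5.76% of all genes at 6 h, and the 4 and 3 at 24 h are below the 4.59% and 5.2%. The 48 h counts below are read beside the 6.87% of all genes that fell and the 5.14% that rose. At 48 h 5 of 20 other kinetochore proteins fell and 0 rose, among them CENPI, a subunit of the constitutive centromere network, by 0.39 (adjusted p = 0.0348) and OIP5, which helps load CENPA, by 0.38 (adjusted p = 0.0131). Of 17 other mitotic kinases, entry regulators and spindle proteins (among them KIF18B, KIFC1, KIF22 and TACC3) 5 fell and 0 rose. They were led by MASTL, the Greatwall kinase that holds back a phosphatase opposing CDK1, by 0.50 (adjusted p = 0.0128). BORA, an activator of Aurora A, fell by 0.33 (adjusted p = 0.0447). Of 12 cohesin genes 2 fell and 0 rose, namely RAD21, the ring subunit cut at anaphase, by 0.42 (adjusted p = 0.00423), and PDS5B, its regulator, by 0.40 (adjusted p = 0.0288). Of 14 genes of the anaphase-promoting complex and its partners (among them FZR1, FBXO5 and UBE2S) 1 fell, the subunit CDC26, by 0.25 (adjusted p = 0.043). In the DREAM and MuvB complexes 1 of 9 fell, RBL2, a pocket protein of resting cells, by 0.23 (adjusted p = 0.0172), and MYBL2 had a difference of 0.02. The G1/S and replication genes, which act earlier in the cycle, had 1 of 20 lower, TYMS (thymidylate synthase), by 0.30 (adjusted p = 0.0489), and 2 higher, CCNE1 (cyclin E) by 0.38 (adjusted p = 0.0179) and E2F1 by 0.27 (adjusted p = 0.024). Of 6 CDK inhibitors 0 passed limma's test at 48 h, with 2 lower and 2 higher by an unadjusted p under 0.05 and 1 lower and 1 higher by SAM. CDKN1A, an inhibitor of cyclin-dependent kinases, had differences of 0.42, 0.05 and 0.04 in order of time, with adjusted p of 0.211, 0.836 and 0.779. By list, the 48 h medians were -0.26 for cohesin, -0.12 for the anaphase-promoting complex and its partners and -0.21 for other kinetochore proteins. They were -0.17 for other mitotic kinases, entry regulators and spindle proteins, and -0.04 for DREAM and MuvB. For G1/S and replication the median was -0.08 and for CDK inhibitors -0.09, beside -0.25 for the 57 mitosis genes and -0.01 for all genes.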

How the data were processed

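RWPE1 cells treated with 1,25(OH)2D or vehicle for 6, 24 or 48 h were measured on 24 Affymetrix U133 Plus 2.0 arrays, 4 per group. Background correction, quantile normalization over the 24 arrays and summary by probe set were done by the authors with gcRMA, of a version not given in the sources used here, and the table they deposited holds log2 intensities. The submitters' processing notes name GCRMA. The deposited table has 54675 rows, of which 62 controls were left out. MAS5 present calls were not used here. In their place probe sets were ranked by the value that 3 of 4 arrays reached in their best group, and as many were tested as the study kept by its calls, down to a value of 3.205. A single gene symbol was given to 21885 of them, several to 1087 and none to 3014. For each gene the brightest of its tested, singly annotated probe sets was used. Values near background are pulled to a floor by gcRMA, which can distort the changes of dim probe sets.

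The 8 arrays of a time point were compared in R 4.3.3 by the lmFit and eBayes functions of limma 3.58.1, and p-values were adjusted by Benjamini-Hochberg over all tested probe sets with 0.05 as the threshold. Differences between times were contrasts of 6 group means fitted to the 24 arrays at once. Tables were made with Python 3.11.15 and pandas 2.3.3. SAM, a two-class unpaired permutation test at a false discovery rate of 5% over all relabellings, was re-implemented as an alternative. The scripts were tested on simulated data. The arrays have no read depth, and their number limits the precision. P-values measure the spread between these flasks of 1 line. The replicate numbers of the titles were checked as pairs: deviations from the group means of same-numbered arrays correlated at -0.37 to 0.76 at 6 h, -0.89 to 0.35 at 24 h and -0.12 to -0.01 at 48 h, so the numbers were not used as pairs. The 57 genes, their 7 classes, the lists of related genes, the tests and the alternatives were chosen with earlier results of these data known. Values in every array are given by a rule: in each class the gene with the largest and the one with the smallest absolute change at 48 h, and genes whose probe sets disagree in sign. BUB1, KIF15 and CENPE were added after their values were seen. In the lists of related genes up to 2 genes with the largest called change at 48 h are named. Promoters are from the RefSeq table of GRCh38.p14.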

Additional observations from a re-analysis of the deposited data

Results flagged for a closer look

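In groups of 4 arrays, a lowest or highest value far from the other 3 was looked for with Dixon's critical value in the mean of the 57 genes and in each of the 16 genes chosen by the rule, 102 groups in all. Chance alone flags about 1 in 20 groups, and 4 were found. The mean of the 57 genes was 9.75 in vehicle replicate 1 at 6 h, below the other 3 arrays of its group (10.27 to 10.38). CDC25C, the phosphatase of mitotic entry, was 8.89 in the same array, above the others (8.54 to 8.60). CENPF, the kinetochore protein, was 7.94 in vehicle replicate 1 at 24 h, below the others (9.71 to 9.87). INCENP, the scaffold of the passenger complex, was 6.17 in 1,25(OH)2D replicate 2 at 48 h, above the others (5.67 to 5.72). The first 3 lie in arrays that stood apart on the main axis of spread between replicates, and the last does not.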

How the results depend on the processing

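The number of mitosis genes past the threshold depended on the fit, and the cause was not tested beyond what each setting is built of. At 48 h 17 fell, against 6.87% of all genes. The count was 2 with all 24 arrays in one fit (2.5% of all genes lower) and 7 with no filter on dim probe sets (4.47%). It was 31 with array weights (10.8%), 28 by SAM (9.98%) and 2 when a 1.5-fold change was asked for as well. When single arrays were left out it ran from 7 to 23, with 4.4% to 9.2% of all genes lower. With the replicate number as a block (replicate block) the count was 6 (3.66% of all genes lower), though the numbers do not pair the samples. All 17 were among the 28 of SAM and the 31 with array weights, and a second quantile normalization kept 13, centring each array on its median 12 and a stricter filter 17. At 24 h, where 0 fell, the count was 4 with all 24 arrays in one fit (1.21% of all genes lower), 2 with no filter (0.175%) and 48 with array weights (18.6%). It was 35 without the 4 arrays that stood apart (14.2%) and 10 by SAM (3.16%). The count stayed at 0 whichever single array was left out and with the replicate block. At 6 h it was 0 in every setting run.

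For the effect at 24 h against 6 h the count was 0 and ran to 8 with a replicate number left out, and was 7 without the 4 arrays. For 48 against 6 h it was 0, and 1 without the 4 arrays. With 1,25(OH)2D at 24 against 6 h it was 10 higher, running from 2 to 17 with a replicate number left out, and 0 lower, running to 22, or 9 without the 4 arrays. With vehicle over the same interval it was 19 higher and ran from 7 to 15. For 48 against 24 h it was 0 with 1,25(OH)2D, running to 9, or 5 without the 4 arrays, and 0 with vehicle, or 1 without them. For these contrasts between times, the shares of all genes under other settings are not given. The difference of the mean over the 57 genes stayed between -0.31 and -0.24 at 48 h, and between -0.73 and -0.40 at 24 h. For single genes at 48 h, 372 of 485 values under other settings kept their direction and side of the threshold, 105 lost the call with the same direction and 2 gained one. The sign turned in 6, all of differences that did not pass the test: CDCA5 and PLK1 (0.01 and 0.02) when arrays were centred, and CDCA5 (to 0.01), INCENP (to 0.05), MKI67 (to 0.03) and SPC24 (to -0.01) without 1 array.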
